A study of Homo sapiens with 9 samples.

Results

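Genes that encode 10 subunits of SWI/SNF, a chromatin remodeling complex, were examined for peaks of the complex itself: SMARCA4, SMARCA2, SMARCC1, SMARCC2, SMARCD1, SMARCD2, SMARCE1, ACTL6A, PBRM1 and BRD7. They were chosen by name, as subunit genes other than those of the 4 immunoprecipitated proteins, and are 10 of 20163 protein-coding genes. Their peaks are those whose deposited nearest gene is a gene of this set. Of 34575 ARID peaks, 28 met this rule. The assay was ChIP-seq on HepG2, a long-established human liver cancer line, with antibodies against ARID1A, ARID1B, ARID2 and SNF5 (also named BAF47 or SMARCB1). Every library came from untreated HepG2 cells fixed with formaldehyde and digested with micrococcal nuclease, so the 4 groups are distinguished by their antibody. The labels list 2 replicates per antibody and 1 input library. The authors merged the replicates before calling peaks, so each antibody is represented by 1 peak list.

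The SNF5 list was the longest, at 20718 peaks with a median width of 535 bp. The ARID lists held 12852 peaks for ARID1A (median 218 bp), 12995 for ARID2 (189 bp) and 8728 for ARID1B (164 bp). There is no replicate error behind any count below, no test was made, and the depth of the libraries is unknown because the lists hold no read counts. A gene without a peak is a gene at which none was called, which is not the same as a gene without binding. When lists are set side by side, a subunit cannot be told apart from its antibody or from how deeply it was sequenced.

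SWI/SNF complexes use the energy of ATP to slide or eject nucleosomes. Each is built around either SMARCA4 (BRG1) or SMARCA2 (BRM), which are alternative ATPases. In the forms named BAF and PBAF the core contains SMARCC1 (BAF155), SMARCC2 (BAF170), a SMARCD protein (BAF60), SMARCE1 (BAF57), SNF5 and the actin-related protein ACTL6A (BAF53A). ARID1A and ARID1B are alternative subunits of the BAF form, whereas ARID2, PBRM1 (BAF180) and BRD7 belong to the PBAF form.

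Peaks of several ARIDs met on short stretches of DNA at these genes, and the sequences of 5 such stretches are shown here. Overlaps at SMARCE1 and ACTL6A, and further ones at SMARCA4 and SMARCD2, are not printed. The stretch at SMARCA4 (chr19:11071230-11071461, 232 bases) and that at SMARCD2 (chr17:61920503-61920672, 170 bases) lay in peaks of all 3 ARIDs. Those at SMARCC1 (chr3:47823597-47823726, 130 bases of a 742 bp overlap), SMARCC2 (chr12:56584128-56584174, 47 bases) and PBRM1 (chr3:52719599-52719760, 162 bases of a 236 bp overlap) lay in peaks of ARID1A and ARID2. All are from GRCh37, which is the same assembly as hg19, and are printed 5′ to 3′ on the strand of the gene, which is plus for SMARCA4 and minus for the others, with exons of the Gencode v44 annotation left out. Genes in other annotations were not removed. The SMARCC2 stretch lies on the side of that gene where RefSeq places a transfer RNA gene, and may include bases of it. The peaks that share this stretch were assigned to a neighbouring gene and not to SMARCC2, so they are not among the 28 peaks counted below. Capitals mark matches on either strand to any of 10 motif words searched, of which GGGCGG (SP/KLF factors, here also read as CCGCCC) and GCGCATG (NRF1) occurred.
SMARCA4 stretch in peaks of ARID1A, ARID1B and ARID2: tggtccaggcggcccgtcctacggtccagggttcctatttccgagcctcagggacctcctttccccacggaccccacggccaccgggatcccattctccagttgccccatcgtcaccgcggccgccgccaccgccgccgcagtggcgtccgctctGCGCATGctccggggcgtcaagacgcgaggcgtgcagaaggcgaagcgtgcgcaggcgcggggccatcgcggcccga
SMARCD2 stretch in peaks of ARID1A, ARID1B and ARID2: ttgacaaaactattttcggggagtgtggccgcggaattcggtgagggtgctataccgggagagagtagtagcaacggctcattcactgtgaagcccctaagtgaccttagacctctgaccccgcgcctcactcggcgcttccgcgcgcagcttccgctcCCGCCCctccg
SMARCC1 stretch in peaks of ARID1A and ARID2: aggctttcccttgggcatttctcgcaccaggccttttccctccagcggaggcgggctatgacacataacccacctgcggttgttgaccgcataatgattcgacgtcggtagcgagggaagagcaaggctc
SMARCC2 stretch in peaks of ARID1A and ARID2: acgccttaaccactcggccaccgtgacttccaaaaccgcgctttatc
PBRM1 stretch in peaks of ARID1A and ARID2: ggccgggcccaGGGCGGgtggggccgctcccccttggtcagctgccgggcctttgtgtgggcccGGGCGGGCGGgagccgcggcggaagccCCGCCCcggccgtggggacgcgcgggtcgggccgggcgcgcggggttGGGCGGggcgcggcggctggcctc

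For contrast, 250 bases before the starts of both genes without a peak are given, SMARCA2 on the plus strand (chr9:2014936-2015185) and BRD7 on the minus strand (chr16:50402900-50403149), with the same use of capitals. For SMARCA2 these bases precede the group of starts around its canonical start and lie in an intron of a longer annotated transcript.
SMARCA2 bases without a called peak: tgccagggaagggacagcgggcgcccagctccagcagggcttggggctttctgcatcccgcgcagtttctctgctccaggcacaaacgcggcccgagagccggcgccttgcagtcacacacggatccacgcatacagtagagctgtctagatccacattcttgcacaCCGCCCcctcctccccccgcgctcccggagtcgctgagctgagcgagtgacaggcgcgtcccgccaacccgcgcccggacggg
BRD7 bases without a called peak: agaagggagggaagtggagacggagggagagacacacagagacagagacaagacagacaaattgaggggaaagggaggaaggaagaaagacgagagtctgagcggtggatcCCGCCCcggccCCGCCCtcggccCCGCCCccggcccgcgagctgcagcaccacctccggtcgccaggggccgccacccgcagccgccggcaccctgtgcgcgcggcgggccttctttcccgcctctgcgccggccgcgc

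The stretch at PBRM1 was 85.8% G or C and held 5 matches to GGGCGG, the most of the 7 sequences. The stretch at SMARCA4 was 72.0% G or C, with 1 match to GCGCATG and none to GGGCGG. The printed stretches at SMARCC1 and SMARCC2 held no match to any of the words. For SMARCC1 these were 130 bases of the 742 bp overlap, since exons were left out. The 300 bp around its canonical start lie within that overlap. They held 2 matches to GGGCGG, 1 to CCGGAAG (ETS factors) and 1 to GCGCATG. The BRD7 sequence, where no peak was called, held 3 matches to GGGCGG. A match is a description of the letters and not evidence of a bound factor.

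An ARID peak was assigned to 7 of the 10 subunit genes, against a background of 43.7% of 20136 protein-coding gene names. ARID1A peaks were assigned to 7 (background 33.3%), ARID2 peaks to 6 (background 29.7%) and ARID1B peaks to 2 (background 17.1%). The same 6 genes that had ARID2 peaks also had ARID1A peaks (background for both 22.3%), and SMARCA4 and SMARCD2 had peaks of all 3 ARIDs (background 10.1%). SMARCD1 had an ARID1A peak alone. No ARID peak was assigned to SMARCA2, SMARCC2 or BRD7. The ARID1B count of 2 in 10 is near its background share, and with 10 genes a change of 1 gene moves each of these shares by 10 percentage points. The paper reports that transcripts without expression had very little ARID binding. Backgrounds over protein-coding genes, here and below, are not matched for expression.

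**Figure D1:**
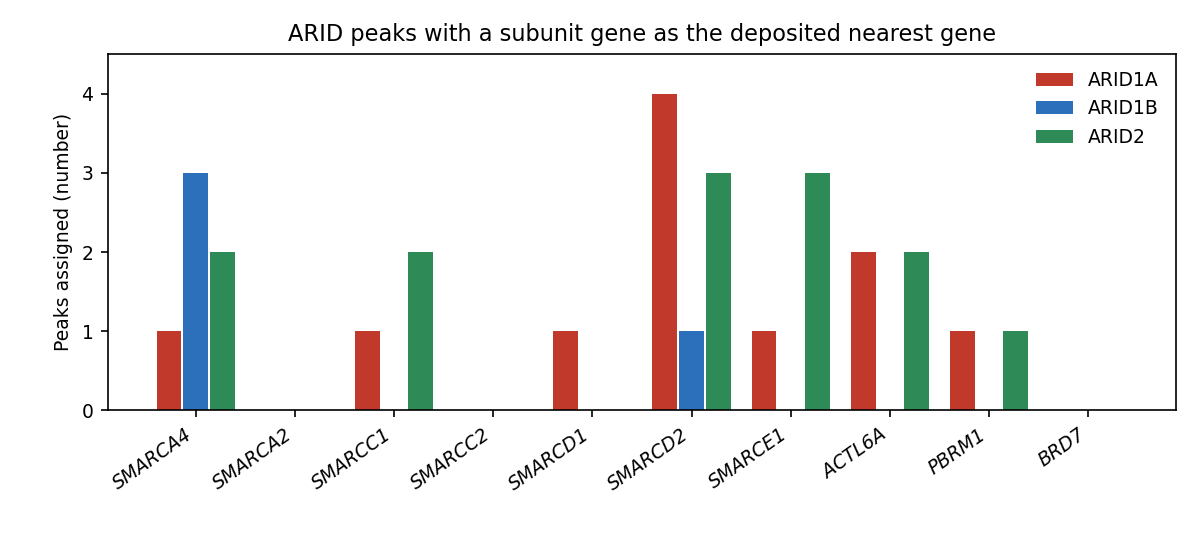
Number of ARID peaks (vertical axis) whose deposited nearest gene was each of the 10 subunit genes (horizontal axis), by ARID list in color. SMARCD2 has 8 peaks in all and SMARCA4 has 6, these are the 2 genes with ARID1B peaks, and SMARCA2, SMARCC2 and BRD7 have none.

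Among the ATPases, SMARCA4 was assigned 6 peaks, namely 1 ARID1A, 3 ARID1B and 2 ARID2 peaks, which is more than 90.2% of the 12428 gene names in the lists received. Its ARID1A peak (chr19:11071167-11071732, 566 bp) covered the canonical start at position 11071706 and contained whole both the widest ARID1B peak, of 232 bp, and an ARID2 peak of 461 bp. The second ARID1B peak (134 bp) began 18 bp past the start and met the ARID1A peak over 9 bp. The third ARID1B peak, of 52 bp, lay 3356 bp into the gene, in an intron but in the deposited active promoter state, and overlapped no other peak. A second ARID2 peak, 125 bp wide and 908 bp past the start, was likewise alone. All 3 ARIDs were thus called together just before the start, and the lone peaks were inside the gene. A single SNF5 peak (chr19:11070991-11072291, 1301 bp) covered the 4 shared ARID peaks, with a score of 25, above 77.5% of the SNF5 list.

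SMARCA2, which encodes the alternative ATPase, had no peak of any of the 4 lists within 5000 bp of its gene body. From its canonical start (chr9, position 2015347) the nearest ARID1A and ARID2 peaks were each 829 kb away, the nearest ARID1B peak 1330 kb and the nearest SNF5 peak 451 kb. Across 19881 protein-coding genes the median distance to the nearest peak of any list was 2.76 kb, and only 5.40% of genes were farther from one than SMARCA2. Of the pair of ATPase genes, SMARCA4 thus lay under peaks of all 4 proteins and SMARCA2 far from any.

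Of the core scaffold genes, SMARCC1 had 1 ARID1A and 2 ARID2 peaks. The ARID1A peak (chr3:47822927-47823726) was 800 bp wide, wider than 94.2% of its list, and shared 742 bp with an ARID2 peak of 743 bp. Both spanned the canonical start at position 47823383. A second ARID2 peak of 124 bp lay in an intron 1189 bp into the gene, alone. The SNF5 peak over the start was 1441 bp wide with a score of 20, the middle of the list, and another SNF5 peak of 261 bp lay farther into the gene. No ARID1B peak was called within 268 kb of the SMARCC1 start.

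SMARCC2, the partner of SMARCC1 in the core, was assigned no peak, yet peaks lay close to its start. An ARID1A peak of 394 bp and an ARID2 peak of 234 bp had edges 861 and 674 bp before the canonical start (chr12, position 56583267) and overlapped each other by 47 bp. The authors assigned both to RP11-977G19.5, at deposited distances of 254 and 8 bp. In Gencode v44 a long noncoding gene, ENSG00000258199, starts on the same strand 801 bp before SMARCC2, and RefSeq on GRCh38.p14 places a transfer RNA gene, TRS-CGA4-1, next to SMARCC2 on that side. An SNF5 peak of 839 bp with a score of 20 covered the overlap and came within 340 bp of the SMARCC2 start. The midpoints of the ARID1A and ARID2 peaks were at -1058 and -791 bp from the SMARCC2 start. Both were thus nearer to the start of ENSG00000258199 than to that of SMARCC2. Which of the neighbouring genes the peaks act on was not tested.

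The SMARCD genes encode alternative BAF60 proteins, and their 2 members here differed in the number of peaks. SMARCD2 was assigned 8 peaks, more than 95.0% of names in the lists, all in the promoter class, with 4 of ARID1A, 1 of ARID1B and 3 of ARID2. Its widest ARID2 peak (chr17:61919859-61920673, 815 bp, wider than 97.0% of the list) covered the canonical start at position 61920045. That peak took in whole 1 ARID1A peak of 172 bp and the ARID1B peak of 191 bp, and 171 bp of another ARID1A peak of 201 bp. The other wide ARID2 peak, of 785 bp, lay inside the gene and shared 80 bp with an ARID1A peak of 139 bp. An ARID1A peak of 228 bp and an ARID2 peak of 52 bp stood alone, with midpoints at -1002 and -1357 bp from the canonical start. The SNF5 peak was 1894 bp wide with a score of 28, above 86.8% of the list, and overlapped 6 of the 8 ARID peaks. ARID peaks of 1 list were thus split where SNF5 was called as 1 broad peak.

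SMARCD1 was assigned 1 peak, of ARID1A, which was 101 bp wide (chr12:50478972-50479072) and ended 53 bp before the canonical start. No ARID2 or SNF5 peak overlapped it. The nearest ARID2 peak, 96 bp wide and 2916 bp from the canonical start, was assigned to ASIC1, and the nearest SNF5 peak, with a score of 18, was 2048 bp away. The ARID1A peak was wider than only 17.5% of its list.

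SMARCE1, whose product is the HMG-box subunit of the core, had 1 ARID1A and 3 ARID2 peaks. The ARID1A peak (chr17:38803910-38804553, 644 bp) covered the canonical start at position 38804070. One ARID2 peak of 109 bp lay inside it, another of 102 bp met it by 1 bp, and the third, of 228 bp, lay farther upstream and overlapped no other ARID. All 4 fell within an SNF5 peak of 1468 bp that scored 23. Without the 1 bp contact, 2 of the 4 peaks would be shared in place of 3.

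ACTL6A had 2 ARID1A and 2 ARID2 peaks, and among the 6 genes with an SNF5 peak over the canonical start it was the only one at which no ARID peak overlapped SNF5. The SNF5 peak (chr3:179280549-179280857, 309 bp, score 18) covered the canonical start at position 179280714. The first ARID2 peak (191 bp) began at position 179280889, just past the end of the SNF5 peak, and contained an ARID1A peak of 53 bp. A second ARID1A peak of 214 bp and a second ARID2 peak of 52 bp followed 652 and 1195 bp past the start, each alone. ARID and SNF5 peaks at ACTL6A thus lay side by side across the first part of the gene.

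Of the PBAF genes, PBRM1 had 1 ARID1A peak of 236 bp inside 1 ARID2 peak of 453 bp (chr3:52719441-52719893), under an SNF5 peak of 1001 bp that scored 18. The start of GNL3, a gene on the opposite strand, lies 119 bp from that of PBRM1. The midpoints of both ARID peaks were nearer to PBRM1, at 286 and 262 bp, than to GNL3, at 405 and 381 bp, and the peaks lay on the PBRM1 side of both starts. BRD7, the other PBAF gene, had no peak of any list within 5000 bp of its gene body. The nearest ARID1A, ARID1B and ARID2 peaks were 70.6, 98.9 and 99.4 kb from its start (chr16, position 50402899), and an SNF5 peak with a score of 12 lay 21.3 kb away. These distances were less extreme than those of SMARCA2, since 38.7% of all genes were farther from any peak than BRD7.

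**Figure D2:**
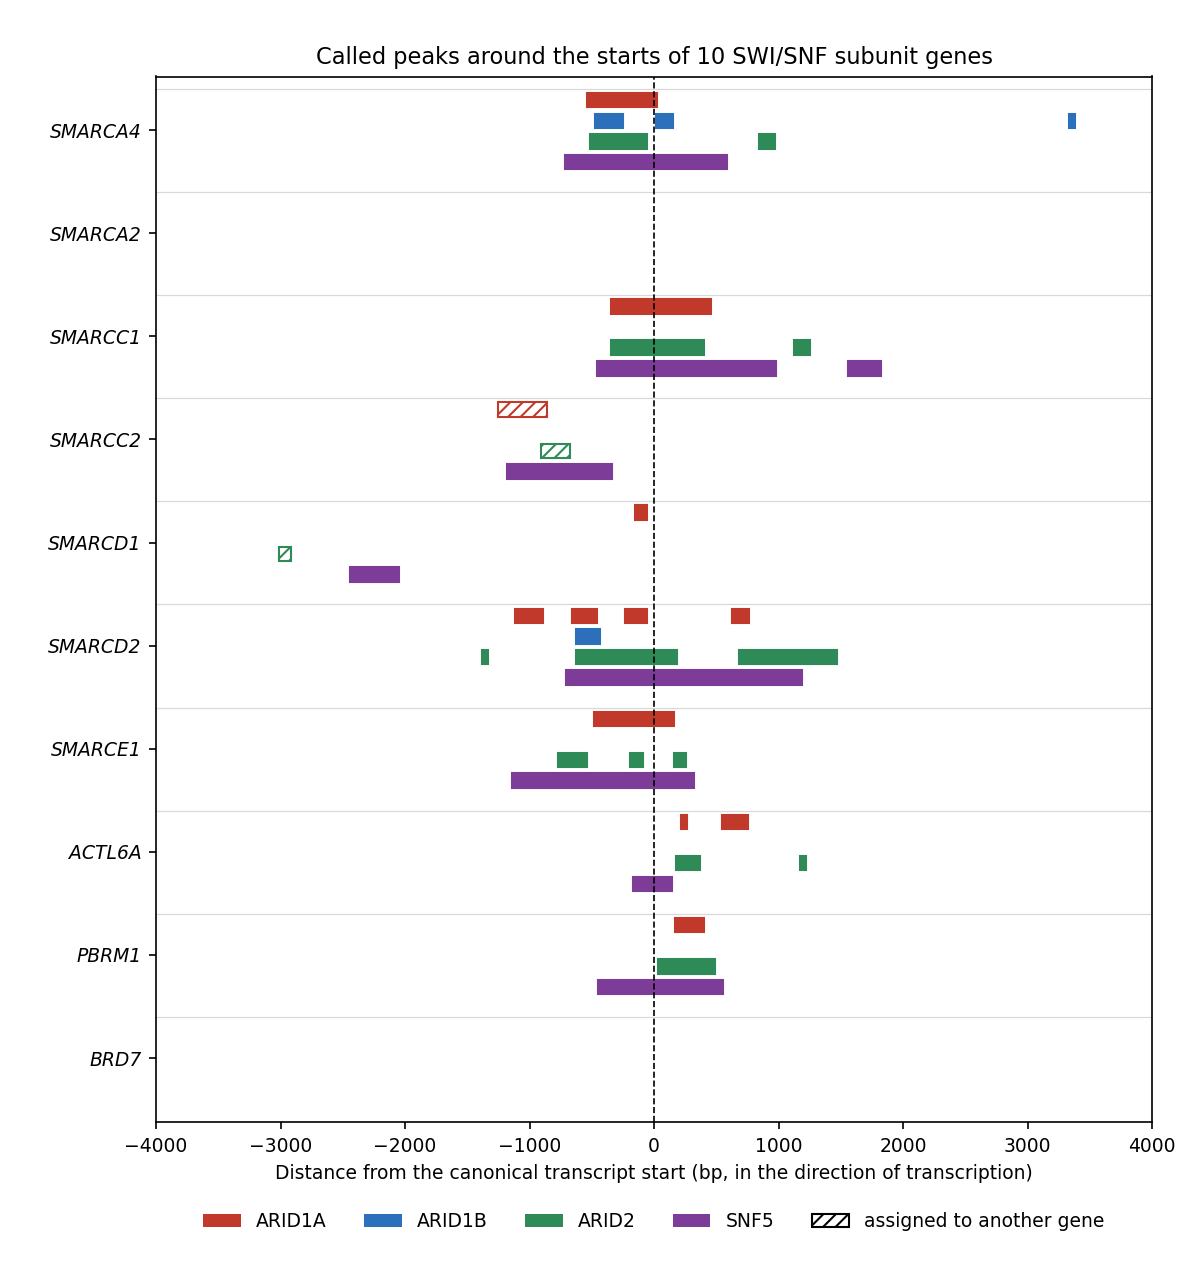
Called peaks within 4000 bp of the canonical transcript start of each gene, drawn to scale in the direction of transcription (horizontal axis, bp), with 1 row per list and hatching for ARID peaks assigned to another gene. Peaks of several lists stack at or near the starts of SMARCA4, SMARCC1, SMARCD2, SMARCE1 and PBRM1, although at PBRM1 only SNF5 covers the start and the ARID peaks lie just inside the gene. SNF5 and ARID peaks lie next to each other at ACTL6A, and none is drawn at SMARCA2 or BRD7.

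Because nearest-gene names depend on the annotation, promoters were also scored by position, as a peak within 1000 bp of any transcript start. By position 8 of the 10 genes had an ARID1A peak (background 37.4%), 7 an ARID2 peak (32.9%), 2 an ARID1B peak (13.8%) and 7 an SNF5 peak (44.0%). At least 1 ARID was found at 8 (background 44.7%), both ARID1A and ARID2 at 7 (26.8%) and all 3 ARIDs at 2 (10.3%). SMARCC2 was the gene gained, for both ARID1A and ARID2, and BRD7 and SMARCA2 had no promoter peak under either rule. Rates differ between chromosomes, with 60.0% of genes on chromosome 16, which holds BRD7, and 41.4% on chromosome 9, which holds SMARCA2, having an ARID promoter peak. SMARCD2 and SMARCE1 are on chromosome 17, where this share was 54.8%.

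**Figure D3:**
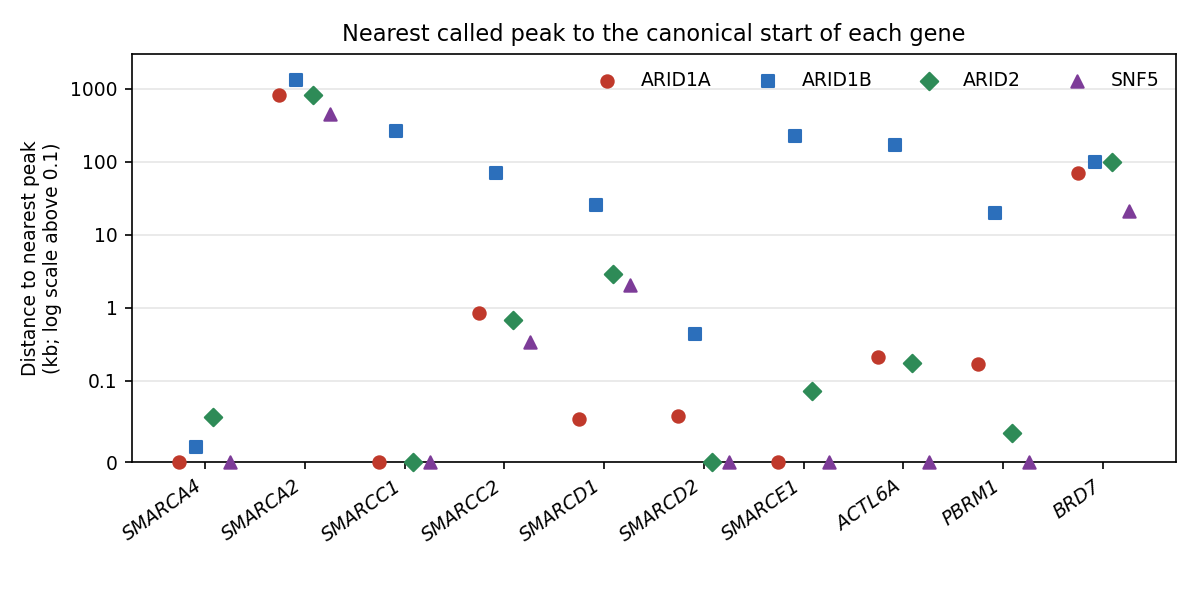
Distance in kb (vertical axis, logarithmic above 0.1 and linear below) from the canonical start of each gene to the nearest peak of each list. The ARID1B point is the highest at each gene except SMARCA4 and BRD7, where that of ARID2 is slightly higher, and all 4 points of SMARCA2 lie at 451 kb or more.

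ARID1B was not called at 8 of the 10 promoters. Its nearest peak was 20.2 kb away for PBRM1, 25.4 kb for SMARCD1 and 70.5 kb for SMARCC2, which is nearer than the median of 97.1 kb over all protein-coding genes. It was 98.9 kb away for BRD7, 170 kb for ACTL6A, 229 kb for SMARCE1, 268 kb for SMARCC1 and 1330 kb for SMARCA2. At BRD7 and SMARCA2 the nearest ARID1A and ARID2 peaks were distant as well, as given above, whereas at the other 6 genes they were within 2.92 kb of the start. The ARID1B list was the shortest of the 4, and how far its length enters these distances was not tested.

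The 28 ARID peaks of the subunit genes lay mostly at promoters. The deposited promoter class held distances to a transcription start site of at most 998 bp, which is the largest value found in that class. The study describes a wider promoter window, yet reports smaller promoter shares for ARID2 and ARID1B than this class gives. The reason for this difference was not tested. By the deposited class 25 of 28 (89.3%) were promoter peaks and 3 were in introns, against 61.7% promoter peaks over all ARID peaks. All 11 ARID1A peaks were in the promoter class (72.6% of the whole list), as were 11 of 13 ARID2 peaks (67.0%) and 3 of 4 ARID1B peaks (37.9%). With a limit of 2000 bp on the deposited distance, all 13 ARID2 peaks would count as promoter peaks. The deposited distances had a median of 146 bp for ARID1A, 200 bp for ARID1B and 175 bp for ARID2. In the deposited chromatin states, which divide the HepG2 genome by its histone marks, 20 of the 28 peaks lay in an active promoter, against 54.7% of all ARID peaks. That state held 10 of 11 ARID1A peaks (62.6% of the whole list), 3 of 4 ARID1B peaks (32.2%) and 7 of 13 ARID2 peaks (61.9%). Another 4 ARID2 peaks lay in the weak promoter state, at SMARCA4, SMARCC1, SMARCD2 and SMARCE1.

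Overlap with another ARID was found for 19 of the 28 peaks (67.9%), against 45.5% of all ARID peaks. It held for 8 of 11 ARID1A peaks (47.6% of the list), 3 of 4 ARID1B peaks (40.1%) and 8 of 13 ARID2 peaks (46.9%). Of the 14 overlapping pairs of peaks, 9 joined ARID1A to ARID2, 3 joined ARID1A to ARID1B and 2 joined ARID1B to ARID2. Merged into regions, the 28 peaks formed 16, of which 5 held ARID1A and ARID2, 2 held all 3 ARIDs and 9 held 1 ARID. Regions with more than 1 ARID were 7 of 16 here and 25.3% of the 25247 regions in the lists. Of the 19 shared peaks, 6 were at SMARCD2 and 4 at SMARCA4. The backgrounds are not matched for promoter class, which held 89.3% of the 28 peaks and 61.7% of all ARID peaks. In the paper, promoter sites of ARID1B and ARID2 were more often bound by several ARIDs than intron or intergenic sites.

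Shared and single peaks were also compared by width and by SNF5. The 19 shared peaks had a median width of 232 bp (53 to 815 bp) and 17 of them overlapped an SNF5 peak, against 89.1% of all shared ARID peaks. The 9 single peaks had a median width of 124 bp (52 to 228 bp) and 1 of them overlapped an SNF5 peak, at SMARCE1, against 49.7% of all single ARID peaks. The exceptions among shared peaks were both at ACTL6A. Over all 28 peaks, 18 overlapped SNF5 (64.3%), close to the 67.6% of all ARID peaks. By list these were 7 of 11 ARID1A peaks (71.3% of the whole list), 3 of 4 ARID1B peaks (62.9%) and 8 of 13 ARID2 peaks (67.2%). Most peaks without this overlap still lay near SNF5. With a gap of at most 1000 bp allowed, the counts were 10 of 11, 3 of 4 and 12 of 13. Of the 28 peaks, 4 were at most 53 bp wide, the least width called in their lists, and the part of width in these overlap counts was not tested. Peaks of that least width made up 5.87% of the ARID1A list, 13.6% of the ARID1B list and 6.77% of the ARID2 list.

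The length of DNA covered by peaks in the 2001 bp centered on the canonical start ordered the promoters. Ranks are over all 19881 protein-coding genes, of which 35.2% had any ARID1A cover, 11.4% ARID1B, 30.2% ARID2 and 41.2% SNF5. High ranks are therefore largely over genes with no cover. Among covered promoters the 90th percentile was 876 bp for ARID1A, 494 bp for ARID1B, 760 bp for ARID2 and 1530 bp for SNF5. SMARCD2 had the most ARID2 coverage, 1134 bp, more than 99.2% of genes, and SMARCA4 the most ARID1B coverage, 366 bp, more than 97.8% of genes. SMARCC1 had the most ARID1A coverage, 800 bp, more than 95.4% of genes, followed by SMARCE1 with 644 bp, SMARCD2 with 625 bp and SMARCA4 with 566 bp. Coverage by ARID1A was 267 bp at ACTL6A, 236 bp at PBRM1, 140 bp at SMARCC2 and 101 bp at SMARCD1. SNF5 covered 1707 bp at SMARCD2, 1441 bp at SMARCC1, 1326 bp at SMARCE1 and 1301 bp at SMARCA4, the last of which exceeded 92.3% of genes. The same 4 genes thus led for ARID1A and for SNF5, while with 1 list per antibody the order among them has no error to be set against.

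The SNF5 list is the one with a peak score. Over that list the median score was 17 for peaks that overlapped no ARID, 20 with 1 ARID, 22 with 2 and 26 with all 3. At the subunit promoters the scores were 28 at SMARCD2 and 25 at SMARCA4, both with 3 ARIDs, 23 at SMARCE1, 20 at SMARCC1, 20 at SMARCC2 and 18 at PBRM1, each with 2, and 18 at ACTL6A with none. The 7 scores ranged between 18 and 28 in a list that ran from 10 to 134, so none was among the extremes.

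**Figure D4:**
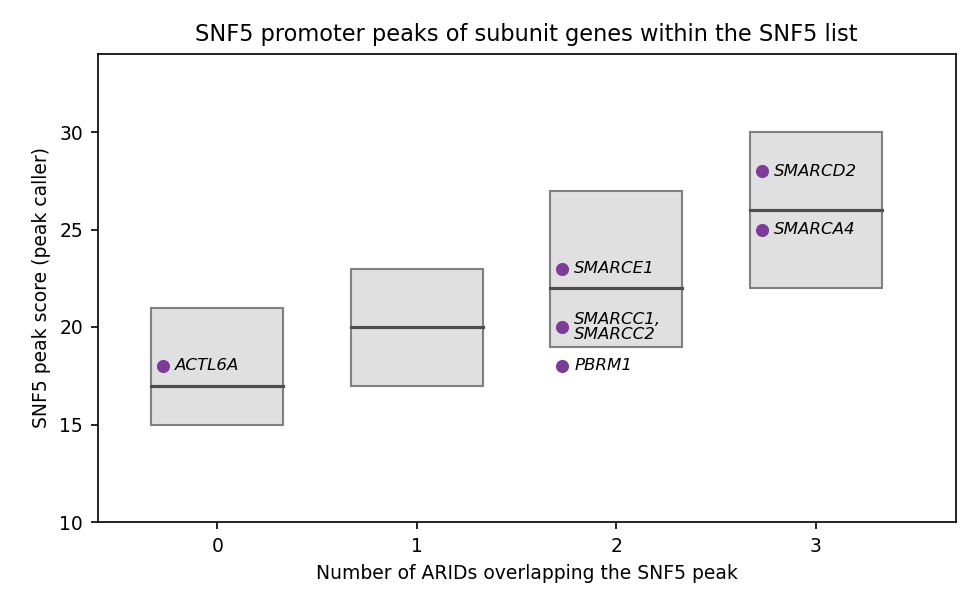
Score of the SNF5 promoter peak at 7 subunit genes (vertical axis, the authors' peak caller score) by the number of ARIDs whose peaks overlap it (horizontal axis). Grey boxes span the quartiles of all SNF5 peaks of each class with the median as a line, and the subunit genes lie inside the boxes except PBRM1, at 18, which lies under its box.

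The 300 bp around each canonical start (250 before and 50 from it) were compared with those of 19881 protein-coding genes. The motif word GGGCGG was present in 10 of 10 subunit promoters and in 61.4% of all promoters. Among all genes it was in 75.6% of promoters with an ARID peak and in 49.8% of those without. The word for ETS factors, CCGGAAG, was in 2 of 10, at SMARCA2 and SMARCC1, and in 14.1% of all. The NFY word CCAAT was in 3 (36.0% of all), and occurred 3 times at ACTL6A. The NRF1 word GCGCATG was in 1 (5.8% of all), the YY1 word AAGATGG in 2 (6.41% of all) and the E-box CACGTG in 1 (8.76% of all). The AP-1 word TGANTCA was in 1, at SMARCA2, and in 5.4% of all. No match was found in these 10 windows to the TATA box word TATAAA, which 9.62% of all promoters held. TATAAA was in 4.75% of promoters with an ARID peak and in 13.6% of those without. Words of liver factors had no match in these 10 windows either. They were the HNF4 word AAAGTCC, held by 3.14% of all promoters, and the FOXA word TGTTTAC, held by 2.4%. Each word was searched on both strands. The median G or C content was 68.5% in subunit promoters and 63.7% in all promoters. BRD7 and SMARCA2, the subunit genes without a promoter peak, had 73.3% and 66.7% G or C. Over all genes the median was 66.7% for promoters with an ARID peak and 60.0% for those without.

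The genes of other remodelers and of further SWI/SNF subunits were scored in the same way. The 19 further SWI/SNF genes include those of the immunoprecipitated proteins (ARID1A, ARID1B, ARID2 and SMARCB1), which were left out of the 10. Each of these had promoter peaks of ARID1A, ARID2 and SNF5. Among the 19, a peak within 1000 bp of a start was found for ARID1A at 12, ARID1B at 8, ARID2 at 13 and SNF5 at 13. The genes of the ISWI group gave 9, 3, 7 and 8 of 10 in the same order, those of NuRD 10, 3, 9 and 11 of 14, and those of INO80 14, 3, 11 and 12 of 14. The 8, 2, 7 and 7 of 10 for the subunit genes described here are thus not set apart from other remodeler genes by these counts. Nearest-gene assignment gave peaks of all 3 ARIDs to 6 of the 19 further SWI/SNF genes, which were ARID1B, ARID2, ACTB, DPF2, PHF10 and SS18L1. SMARCD3, which encodes the BAF60 protein not among the 10, and BRD9 were assigned none.

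**Figure D5:**
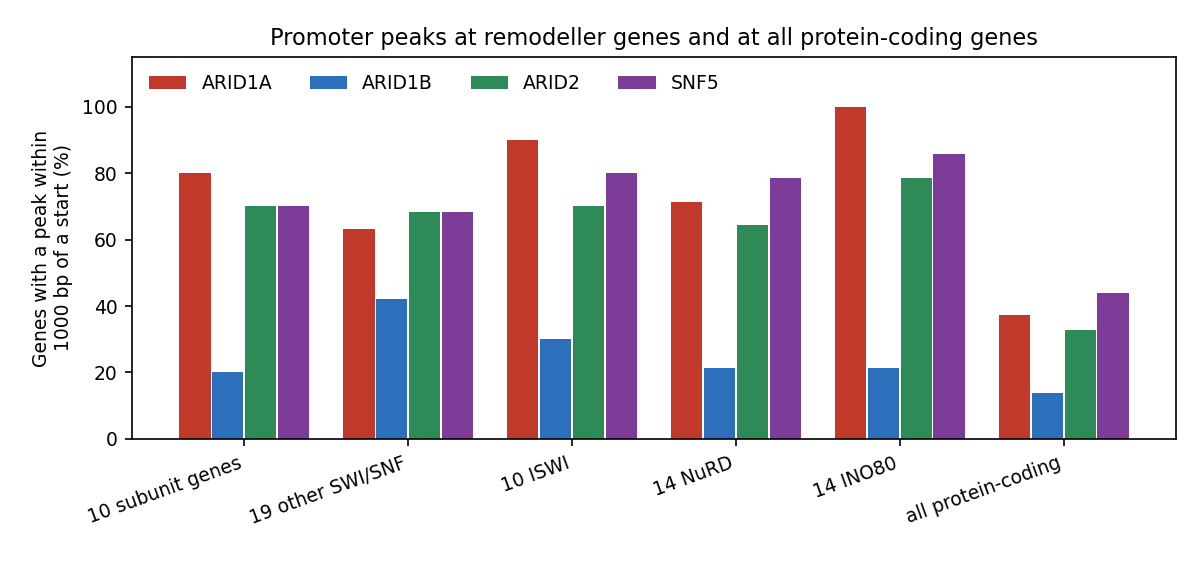
Share of genes in each group with a peak within 1000 bp of a transcript start (vertical axis, %), by list in color, for the 10 subunit genes, 19 further SWI/SNF genes, 3 other remodeler groups and all protein-coding genes. ARID1B is the lowest bar in every group, and every bar of the 5 remodeler groups is above that for all protein-coding genes, which are not matched for expression.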

How the data were processed

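Peaks were read from the deposited lists of ARID1A, ARID1B, ARID2 and SNF5, 1 per antibody. Per the study's methods, the authors used Bowtie2 to place single-end reads on hg19, dropped duplicates, pooled the replicates of an antibody, called broad peaks with MACS2, joined close peaks, took out blacklisted regions and named the nearest gene from an earlier Gencode release. Library depth is unknown, and the input was not used here. The SNF5 list carries the authors' peak score, and the ARID lists carry none. The deposited distance, class and chromatin state were used as given. The deposited distance matched that from the peak midpoint to the nearest start within 10 bp for 63.7% (ARID1A), 65.5% (ARID1B) and 64.2% (ARID2) of peaks.

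Lists were joined in Python 3.11.15 with pandas 2.3.3 and numpy 2.4.6. Starts were converted to count from 1. Overlap meant at least 1 shared bp. Gene positions came from Gencode v44 lifted to GRCh37, and the canonical start is that of its canonical transcript. Of 12428 deposited gene names, 80.7% matched that annotation, 712 of them through an older symbol in RefSeq. Backgrounds are shares over all protein-coding genes or all peaks, and 0 columns of per-sample values were left out. The overlap and counting code was tested on simulated peaks. The named genes were the 10 subunit genes, each given in full. Genes and lists were chosen with earlier results of these data known. Alternatives varied the assignment, the minimum width, the joining of peaks, the overlap rule, the promoter distance and the SNF5 score.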

Additional observations from a re-analysis of the deposited data

How the results depend on the processing

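Of 69 alternatives over 21 counts, 58 stayed within 1.5 times the reported count. No paired analysis was possible because both replicates of each antibody were merged into 1 list, and for the same reason no replicate could be left out. Joining peaks of a list at most 1000 bp apart lowered the peaks assigned to the subunit genes from 11 to 7 for ARID1A and from 13 to 6 for ARID2. Keeping only peaks at least as wide as the median of their list left 5 ARID1A, 2 ARID1B and 7 ARID2 peaks. Under a reciprocal overlap of at least 50%, 4 ARID1A and 3 ARID2 peaks overlapped another ARID, and 1 ARID1A, 0 ARID1B and 1 ARID2 peaks overlapped SNF5. An ARID peak less than 50% as wide as the SNF5 peak cannot meet this rule at any position. At SMARCA4 and SMARCD2 the SNF5 peaks were 1301 and 1894 bp wide, and the widest ARID peaks 566 and 815 bp. At SMARCC1 the SNF5 peak was 1441 bp wide, with ARID peaks of 800 and 743 bp. The cause of the lower counts between ARIDs was not tested. The median width was 535 bp in the SNF5 list and 164 to 218 bp in the ARID lists. Allowing a gap of at most 1000 bp brought ARID2 peaks near another ARID from 8 to 13. With that gap, peaks near SNF5 rose from 7 to 10 for ARID1A and from 8 to 12 for ARID2, and stayed at 3 for ARID1B. The number of subunit genes with peaks of all 3 ARIDs was 2 under each of the 3 alternatives tried for it. Depth could not be weighed, since the lists hold no read counts.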
